A study of Mus musculus with 7 samples.

Results

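The genes described here encode the proteins of the cytosolic ribosome, read in whole lungs of claudin-18 knockout and wild-type mice on Illumina mouseRef-8 v2 bead arrays. They were chosen by symbol alone: every probe whose gene symbol is Rpl or Rps followed by a number, with or without a trailing a, x or y, together with Rplp0, Rplp1, Rplp2 and Rpsa. The rule found 75 probes of 58 genes among 25697 probes, of which 23978 carried a gene symbol. The 58 genes comprised 32 of the large subunit, 3 of the stalk and 23 of the small subunit. Of these, 51 genes had a probe that passed the detection filter (detection p under 0.01 on at least 3 arrays), and only these 51 were tested.

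The ribosome is built of a small subunit, which reads the messenger RNA, and a large subunit, which joins the amino acids. Each subunit is an RNA scaffold carrying many small proteins, nearly all present in a single copy per ribosome, so cells make these proteins in matched amounts. Their messenger RNAs are among the most abundant in any growing or secreting cell, and most begin with a stretch of pyrimidines, the terminal oligopyrimidine tract, through which the kinase mTOR sets their translation. A few of the proteins also act outside the ribosome: free Rpl5 and Rpl11 restrain Mdm2, the ubiquitin ligase that degrades p53. Ribosomal protein genes have many processed pseudogenes in mammalian genomes, and whether a probe also reads one was not tested.

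Both groups were untreated male mice, 3 to 4 months old, whose mixed background combined the strains C57BL/6J, Balb/c and 129S6/SvEvTac. The 3 knockout arrays came from animals made by crossing a floxed Cldn18 allele to CMV-cre deleter mice, which removes exons 2 and 3 in all tissues, and the 4 wild-type arrays came from lungs labelled WildType. Lungs were taken whole, so fewer cells of a type and less RNA per cell cannot be told apart. Nothing in the labels ties each array to its own animal. The p-values therefore cover the spread between these samples, which may be technical.

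All 7 arrays lay on 1 slide, the knockout arrays at positions A, B and D and the wild-type arrays at E to H, so position and genotype cannot be told apart. The median signal of all probes was 308 ± 45.6 for the knockout (SD, n = 3) and 411 ± 58.6 for the wild type (SD, n = 4). Cldn18 itself went with the labels, at -3.71 on the log2 scale (limma adjusted p = 4.2e-05), by a probe that may lie within or outside the deleted exons. The lung was recognisable from its markers: all 8 epithelial genes looked up, among them Sftpc, Sftpb and Scgb1a1, were detected. The small number of arrays limits the precision.

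The outcome for the ribosomal protein genes depended on how the arrays were put on 1 scale. After quantile normalization their median change was 0.01, and 1 gene, Rpl22, was lower in the knockout. Quantile normalization makes the top values of all arrays alike by construction, and 14 of the 51 genes lay near the top. After median scaling most of them lay above the wild type and none passed the test. The next paragraphs give the values behind each of these statements. Levels are log2 values, and changes are differences of mean log2 level, with the wild type subtracted from the knockout, so 1 unit is a doubling.

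The start sites of 6 genes are shown. Rpl22 is the gene that passed, and Rpl36a, Rpl27a and Rpl4 are among the next lowest. Rps6 and Rpl13a are preset members shown beside them as examples. Each line gives 35 bases before and 15 bases from the annotated start, 5′ to 3′ on the gene's strand, from RefSeq (GRCm38.p6). Capitals mark a run of at least 8 pyrimidines touching the 5 bases on either side of the start.
Rpl22 (chr4:152324401-152324450, plus strand): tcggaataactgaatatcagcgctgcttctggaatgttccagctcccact
Rpl36a (chrX:134585619-134585668, plus strand): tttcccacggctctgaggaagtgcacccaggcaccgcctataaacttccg
Rpl27a (chr7:109519160-109519209, plus strand): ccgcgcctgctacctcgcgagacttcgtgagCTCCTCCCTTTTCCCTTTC
Rpl4 (chr9:64173352-64173401, plus strand): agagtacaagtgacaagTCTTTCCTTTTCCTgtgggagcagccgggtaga
Rps6 (chr4:86857353-86857402, minus strand): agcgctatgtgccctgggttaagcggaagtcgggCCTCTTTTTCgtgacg
Rpl13a (chr7:45128731-45128780, minus strand): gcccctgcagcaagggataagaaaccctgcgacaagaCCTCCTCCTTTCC
Rpl22 has a further annotated start, which is not shown and has no such run either. Of the other preset genes with a start site, none shown here, Rplp2 has such a run. Rpl5, Rpl11, Rplp0, Rps19, Rps4x and Rpsa do not.

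Of the 58 genes, 49 had a start site in the RefSeq table, and 19 of them (38.8%) had such a pyrimidine run, against 11.0% of all 27025 genes with a start site. The motif CCGGAAG, read by the ETS factor GABP, was looked for on both strands from 250 bases before to 50 bases after the start. It lay there in 20 of the 49 genes (40.8%), against 9.93% of all genes. The motif AAGATGGC, read by YY1, lay there in 5 of the 49 (10.2%), against 3.19% of all genes. The end of CCGGAAG and the start of AAGATGGC share the letters AAG, so 1 stretch can count for both motifs, and a match is a description of the sequence only.

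**Figure D1:**
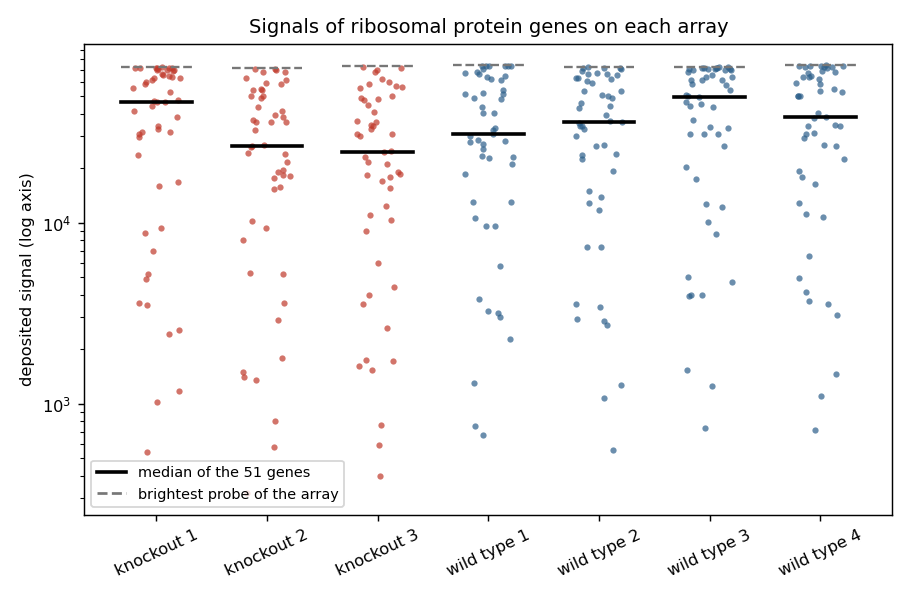
Deposited signal (log axis) of the 51 tested ribosomal protein genes on each of the 7 arrays, 1 point a gene by its brightest probe, with the genes' median as a black bar and the array's brightest probe as a dashed line. The points within 5% of the dashed line number from 2 on knockout 3 to 13 on wild type 3, and the black bars run from 24402 to 49595 on the same arrays.

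The deposited signals show how bright these genes were. All 51 tested genes were detected on all 7 arrays. Their median signal was 46290, 26579 and 24402 on knockout 1, 2 and 3, and 30959, 35842, 49595 and 38168 on wild type 1, 2, 3 and 4. The groups overlapped: knockout 1 lay above 3 of the wild-type arrays, and knockout 2 and 3 lay below all 4.

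The upper end of the scale was crowded. The brightest probe of each array read between 71422 and 73816, although the arrays' medians differed more. Within 5% of that brightest signal lay 11, 4 and 2 ribosomal protein genes in the knockout (arrays 1 to 3) and 7, 5, 13 and 9 in the wild type (arrays 1 to 4). Together 14 of the 51 genes came within 5% of it on at least 1 array. Rplp1, a protein of the stalk that recruits translation factors, did so on all 7, with signals of 69182, 70306 and 71349 in the knockout and 73090, 70445, 69886 and 72720 in the wild type. The Rplp1 signals thus hardly differed between arrays whose overall brightness did. The files carry no saturation flag, so whether such readings are bounds was not tested.

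Over the 14 genes near the top, the median signal was 70703, 60283 and 57771 in the knockout and 69227, 66663, 70832 and 72338 in the wild type. For the 37 other genes it was 31782, 18339 and 17759 in the knockout and 23404, 26403, 33417 and 29233 in the wild type. In both classes knockout 2 and knockout 3 were the dimmest arrays. Those 2 arrays also had the lowest and second-lowest medians over all probes, at 259 and 316.

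After quantile normalization, which gives every array the same distribution of values, the ribosomal protein genes showed no common direction. Of the 51 genes, 28 lay above 0 and 23 below, with a median change of 0.01, equal to the median of 0.01 over all 8537 genes tested. The central 50% of them ran from -0.02 to 0.07, and that of all genes from -0.28 to 0.25. By limma with Benjamini-Hochberg adjustment, 0 were higher and 1 was lower at an adjusted p of 0.05. Over all probes 8.87% passed, and over all genes 8.79%, of which 3.68% were higher and 5.11% lower, so the 1.96% of ribosomal protein genes that passed was below the background. Quantile normalization makes top values alike by construction, and the 14 genes near the brightest signal ran only from -0.05 to 0.18. The low share does not show that these genes were steadier than others. At an unadjusted p under 0.05 stood 2 of the 51 (3.92%), both lower, against 25.7% of all genes (11.7% higher, 13.9% lower).

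Quantile normalization sets values by rank within an array, so the ranks restate the same information on a scale that can be read directly. The median ribosomal protein gene stood at the 99.64th, 99.64th and 99.61st percentile of its array in the knockout. In the wild type it stood at the 99.36th, 99.65th, 99.68th and 99.57th. Wild type 1 was the lowest of the 7, and the other 3 wild-type arrays lay on both sides of the knockout. Gene by gene, the mean percentile was higher in the knockout for 29 genes and lower for 22.

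**Figure D2:**
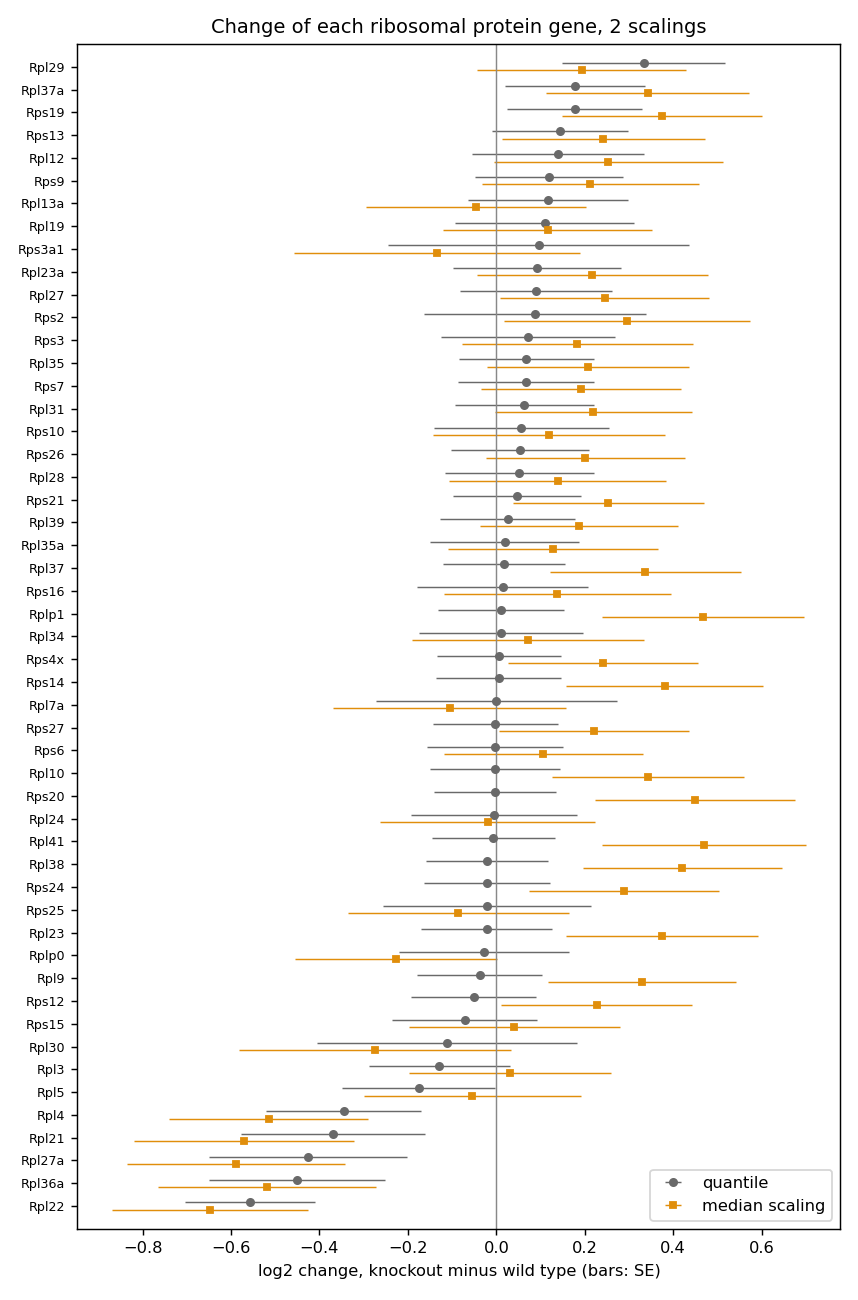
Log2 change, knockout minus wild type, of each of the 51 ribosomal protein genes with quantile normalization (circles) and with median scaling (squares), bars giving the standard error. With quantile normalization most genes sit near 0 and 5 sit below -0.3. Above 0 lie 28 of the 51 with quantile normalization and 38 with median scaling.

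Median scaling, which moves each array by a single amount so that the medians of all probes match, gave another picture. The genes now had a median change of 0.19, with 38 above 0 and 13 below, and 14 genes changed sign between the scalings. No gene passed the test in either direction, where 8% of all genes did (1.65% higher, 6.35% lower). At an unadjusted p under 0.05 stood 0 higher and 4 lower, or 7.84%, against 23% of all genes (4.64% higher, 18.4% lower). Median scaling moved the median of all 8537 genes as well, to -0.15, a shift of -0.16 from its place under quantile normalization. Relative to all genes the ribosomal protein genes therefore stood at 0.34, and 44 of 51 lay above the median of all genes. With quantile normalization the same distance was 0.00, with 26 above and 25 below.

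A single shift per array sets where the changes lie relative to 0. It leaves the distance from all genes the same, at 0.34 with median scaling and with no scaling between arrays. Before scaling, the log2 median of all probes was 6.12 ± 0.30 for the knockout (SD, n = 3) and 6.61 ± 0.19 for the wild type (SD, n = 4). Matching the medians therefore moves the knockout up by 0.49 relative to the wild type. The 14 genes near the brightest signal had an unscaled median change of -0.13, and after the move of 0.49 all 14 lay above 0, with a median of 0.36. Rplp1 went from -0.02 unscaled to 0.47. The 37 other genes had an unscaled median change of -0.37 and a median of 0.12 after median scaling, with 24 above 0 and 13 below. With quantile normalization the 14 stood at -0.004 and the 37 at 0.03.

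**Figure D3:**
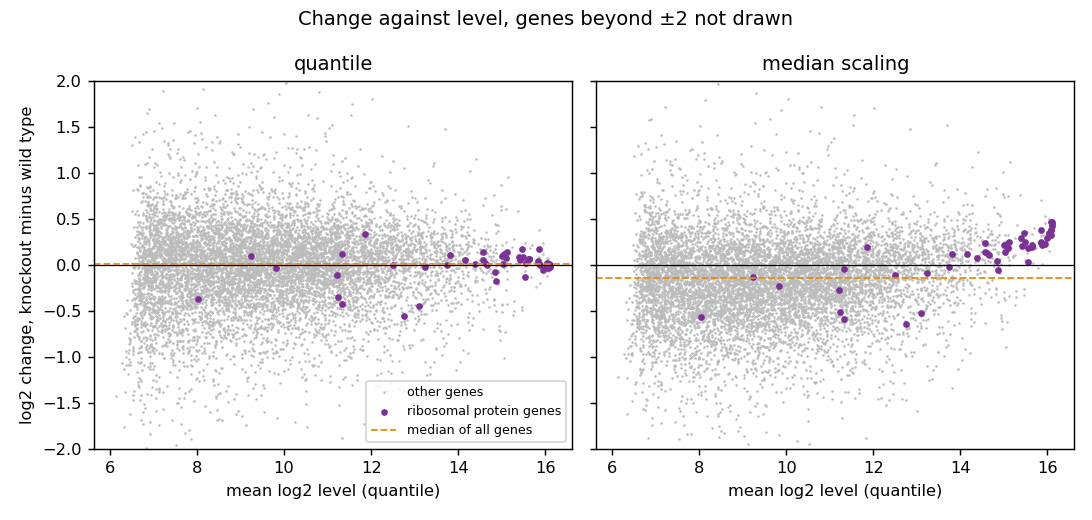
Log2 change, knockout minus wild type, against mean log2 level for all genes tested (grey) and the ribosomal protein genes (purple), with quantile normalization and with median scaling; the dashed line is the median over all genes. With median scaling the purple points at the highest levels reach 0.47, above the dashed line at -0.15, and with quantile normalization the same points stay near 0.

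The shift of all genes differed with their brightness. The 1707 brightest of the 8537 genes, which held 44 of the 51, had a median change of 0.04 with quantile normalization and -0.01 with median scaling. In the 4 dimmer bins of about that size the median under median scaling lay between -0.22 and -0.16. No set matched to the ribosomal protein genes' own brightness was compared. Against the 1707 brightest genes the ribosomal protein genes stood at -0.03 with quantile normalization and at 0.20 with median scaling. Scaling to the 75th percentile of each array gave a median change of 0.41, with 44 above 0, and leaving the arrays unscaled gave -0.30, with 0 above 0 and 51 below. These settings moved all genes alike: the median of all genes was 0.07 and -0.64 under them, and the distance of the ribosomal protein genes from it was 0.34 in both, as with median scaling.

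Wild type 1 stood apart from the other wild-type arrays in these genes. With quantile normalization their median level was 14.72 on wild type 1, against 15.23, 15.33 and 15.06 for wild type 2, 3 and 4. The knockout levels were 15.19, 15.20 and 15.15. Wild type 1 was the lowest of the 7 arrays for 32 of the 51 genes, and the lowest of the wild-type arrays for 37. With median scaling those counts were 43 and 50. The median signal of all probes on that array, 453, was the second highest of the 7, and it had the most detected probes, 12376.

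Without wild type 1 the quantile-normalized counts turned over, and those under median scaling kept their majority above 0. With quantile normalization 13 genes lay above 0 and 38 below, with a median change of -0.03 and 2 lower genes past the threshold, Rpl22 and Rpl36a. With median scaling 31 lay above 0 and 20 below, and the median change went from 0.19 to 0.07. The distance from all genes under median scaling went from 0.34 to 0.19. For the 37 genes away from the brightest signal, the median change under median scaling was then -0.02, with 17 above 0 and 20 below. Leaving out knockout 1, the brightest knockout array, also brought the median change under median scaling down to 0.07.

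**Figure D4:**
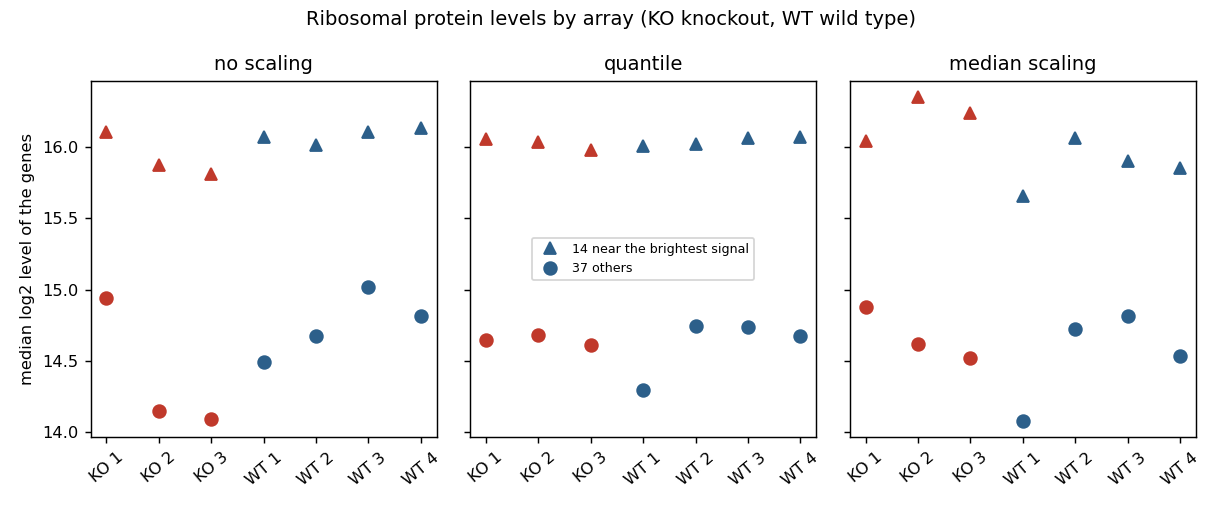
Median log2 level on each array of the 14 ribosomal protein genes that came within 5% of an array's brightest signal (triangles) and of the 37 others (circles), unscaled, with quantile normalization and with median scaling. Wild type 1 is the lowest circle under quantile normalization, at 14.30, and under median scaling, at 14.08, and the triangles of knockout 2 and 3 rise above all others only under median scaling.

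Rpl22 was the 1 member that passed. It is a large-subunit protein at the surface of the ribosome that binds RNA hairpins, and mice lacking it were described for a block in T cell development. Its probe read 6952, 3580 and 3541 in the knockout and 10616, 7278, 10057 and 10751 in the wild type. All 3 knockout signals lay below all 4 wild-type signals, and so did the levels under both scalings, which held for 1 of 51 genes with quantile normalization and 2 with median scaling. Over all genes tested, 13.1% and 14.7% had the knockout below in that way. With quantile normalization Rpl22 stood at 12.43 ± 0.05 for the knockout (SD, n = 3) and 12.99 ± 0.11 for the wild type (SD, n = 4).

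The Rpl22 change was -0.56 (SE 0.15, limma adjusted p = 0.0456), or 1.47-fold lower, on chromosome 4 at 152324436 to 152334082 (GRCm38.p6). Under median scaling the value was -0.65 (adjusted p = 0.0890). Over the 17 other settings tried, leave-outs included, the Rpl22 change stayed below 0, and its adjusted p ran from 0.00622 to 0.181, passing in 7. Those 7 include the fit with no scaling between arrays (adjusted p = 0.0253), in which all 51 genes lay below 0. With any 1 of the 3 knockout arrays left out, or wild type 2, 3 or 4, Rpl22 did not pass, with adjusted p from 0.0705 to 0.181. Its paralog Rpl22l1 was detected on 0 arrays and was not tested.

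**Figure D5:**
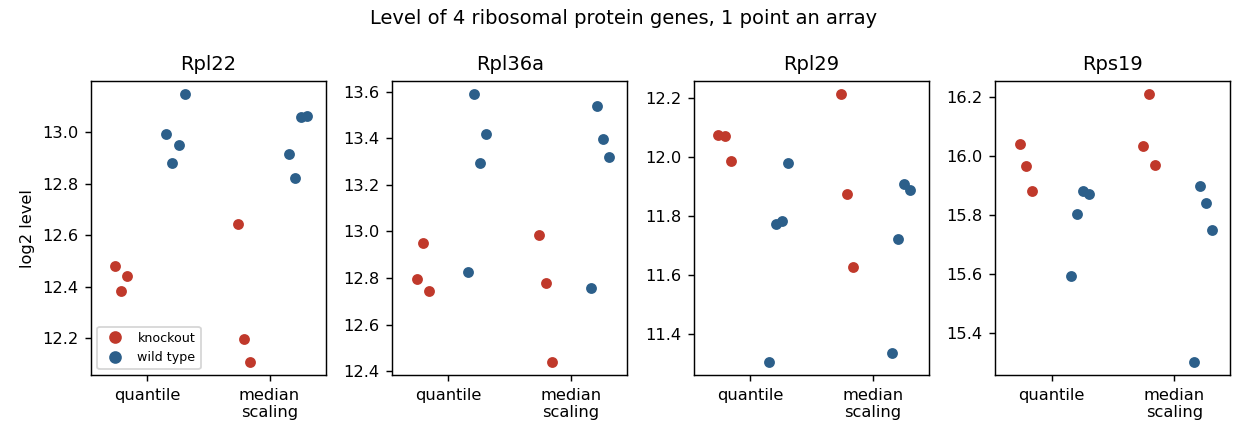
Log2 level of Rpl22, Rpl36a, Rpl29 and Rps19 on each array, with quantile normalization and with median scaling. Rpl22 separates the 3 knockout from the 4 wild-type arrays under both scalings, and the lowest wild-type point of the 3 other genes is wild type 1.

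The next lowest members were also large-subunit genes, and none of them passed. Rpl36a, an X-linked gene whose protein lies near the site where tRNAs leave, read 8727, 5252 and 4386 in the knockout and 9550, 11757, 12656 and 12768 in the wild type. The raw signals did not overlap, but after quantile normalization wild type 1, at 12.83, lay among the knockout levels of 12.75 to 12.95. The Rpl36a change was -0.45 (SE 0.20, limma adjusted p = 0.189). Without wild type 1 it was -0.60 with an adjusted p of 0.0435.

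Rpl27a, a large-subunit protein whose gene is disrupted in the mouse mutant Sooty foot ataxia, read 2431, 1497 and 1732 in the knockout and 3178, 3393, 4976 and 3549 in the wild type. The raw signals did not overlap, but after quantile normalization the groups did, and its change was -0.43 (SE 0.22, adjusted p = 0.264). Median scaling gave -0.59 (adjusted p = 0.166), and the groups did not overlap. Rpl21, with a dim probe, gave -0.37 (SE 0.21, adjusted p = 0.299), and its other probe gave 0.02. Rpl4, which lines the tunnel through which the new protein leaves, gave -0.34 (SE 0.18, adjusted p = 0.250). These 5 genes, Rpl22 included, had probes dimmer than the members' median on every array, and they were the only ones under -0.3 with quantile normalization.

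Among the other large-subunit genes, Rpl5, which binds the smallest RNA of the large subunit, gave -0.18 (SE 0.17, adjusted p = 0.561) with quantile normalization. Rpl3, a protein of the peptidyl transferase region, gave -0.13 (SE 0.16, adjusted p = 0.648), and Rpl30 -0.11 (SE 0.29, adjusted p = 0.842). With median scaling the Rpl3 change was 0.03 and so lay on the other side of 0. Rpl11 has no named probe here.

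The largest value above 0 belonged to Rpl29, a small basic protein of the large subunit that also binds heparin. It read 5218, 2903 and 2609 in the knockout and 3780, 3537, 4682 and 4959 in the wild type. The signals overlapped, while after quantile normalization the 3 knockout levels (12.07, 12.07 and 11.99) lay just above the 4 wild-type levels (11.30, 11.77, 11.78 and 11.98). Rpl29 was the only 1 of 51 genes with the knockout above in that way, against 12.9% of all genes. The Rpl29 change was 0.33 (SE 0.18, adjusted p = 0.289), and under median scaling 0.19 (adjusted p = 0.690), where the groups overlapped.

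The 7 further genes with the largest values above 0 ran from 0.11 to 0.18. They were Rpl37a and Rps19 at 0.18, Rps13 and Rpl12 at 0.14, Rps9 and Rpl13a at 0.12, and Rpl19 at 0.11. Their adjusted p-values lay between 0.500 and 0.772. Rpl13a, whose protein is released in interferon-treated cells to silence inflammatory messages and which is often used as a reference gene, changed side with the scaling and gave -0.05 with median scaling.

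Rps19, a small-subunit protein mutated in Diamond-Blackfan anaemia in people, read 70460, 54679 and 47980 in the knockout and 54068, 59346, 67689 and 67203 in the wild type. Its change was 0.18 (SE 0.15, adjusted p = 0.500) with quantile normalization and 0.37 (SE 0.23, adjusted p = 0.356) with median scaling, where the 3 knockout levels lay above the 4 wild-type levels. That separation held for 3 of 51 genes with median scaling, against 4.78% of all genes, and all 3 of them were among the 14 near the brightest signal.

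By role, the 29 tested large-subunit genes had a median change of 0.00 with quantile normalization, 14 above 0 and 15 below. The 20 small-subunit genes had 0.03, with 13 above 0 and 7 below, and ran from -0.07 to 0.18. With median scaling the medians were 0.14 and 0.22, with 19 of 29 and 18 of 20 above 0. The difference between the subunits was not tested. In the small subunit, Rps6, the target of S6 kinase downstream of mTOR, gave -0.003 (SE 0.15) with quantile normalization and 0.11 with median scaling. Rps4x, the X-linked small-subunit gene, gave 0.01 (SE 0.14) and 0.24. Rps27a, made as a fusion with ubiquitin, has no named probe here, and both probes of Rpsa, also known as the laminin receptor precursor, stayed out of the test.

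Of the stalk, Rplp0, the protein that anchors the stalk to the ribosome, read 1171, 799 and 764 in the knockout and 1303, 1258, 1528 and 1464 in the wild type. Its signals did not overlap, but its levels did after quantile normalization, with a change of -0.03 (SE 0.19, adjusted p = 0.943). With median scaling it gave -0.23 (SE 0.23, adjusted p = 0.608). Rplp1 gave 0.01 (SE 0.14, adjusted p = 0.972) with quantile normalization and 0.47 (SE 0.23, adjusted p = 0.241) with median scaling, so within the same stalk the distance between the genes also turned on the scaling. The only probe of Rplp2 was detected on 0 arrays.

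Probes of a gene did not always read alike. Of the 75 probes, 16 failed the detection filter, 13 of them detected on 0 arrays, 2 on 1 array and 1 on 2 arrays. The genes left with no tested probe were Rpl6, Rpl14, Rpl17, Rplp2, Rps15a, Rps23 and Rpsa, which, except for Rplp2 and Rpsa, were named after their values were seen. These 7 were undetected by their probes and are not shown to be absent. In 7 genes more than 1 probe was tested, and in none did the probes differ by over 1 in log2 change or lie on opposite sides of the threshold.

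Examples chosen after their values were seen are Rpl31 and Rpl38. The brighter probe of Rpl31 gave 0.06 (SE 0.16) and the dimmer -0.53 (SE 0.19, adjusted p = 0.118) with quantile normalization. The brighter probe of Rpl38, near the top of the scale with signals from 67432 to 72964, gave -0.02 (SE 0.14), and the dimmer, from 1063 to 2254, gave 0.39 (SE 0.20, adjusted p = 0.258). The dimmer probes of these 2 genes thus lay on opposite sides of 0.

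Chromosome 9 carries Cldn18 (99690796 to 99717267, GRCm38.p6) and 6 of the 58 genes, of which 4 were tested. Rpl29 lies 6.74 megabases from Cldn18, the nearest of them. Rpl4 (-0.34), Rplp1 (0.01) and Rps25 (-0.02, adjusted p = 0.968), at 35.5, 37.8 and 55.3 megabases, gave the quantile-normalized changes in parentheses. Rps25 was named for its place only. A part of strain differences near the deleted gene in these values was not tested.

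Other genes of the ribosome and of translation were looked up by symbol. Of 7 paralogs and ribosomal protein genes outside the symbol rule with a probe, 5 were tested and 0 passed. Rps27l, a paralog of Rps27 that p53 induces, came closest, at 0.45 (SE 0.14, limma adjusted p = 0.0858) with quantile normalization. Under median scaling it gave 0.56 (adjusted p = 0.142). It read 44775, 23678 and 24580 in the knockout and 26556, 25324, 31684 and 30008 in the wild type. Rpl7l1 gave 0.42 (adjusted p = 0.174), Rpl36al 0.23 (adjusted p = 0.453) and Fau, which encodes a small-subunit protein fused to a ubiquitin-like domain, -0.12 (adjusted p = 0.700). Rpl36al, the autosomal copy of Rpl36a, thus lay above 0 where Rpl36a lay below, though neither passed.

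The mitochondrial ribosome is a separate machine whose proteins are also made in the cytosol. Of 69 tested mitochondrial ribosomal protein genes, 59 lay above 0 with quantile normalization, with a median change of 0.24, 0 were higher and 1 was lower past the threshold. With median scaling 44 lay above 0 and the median was 0.09. The median of all 8537 genes tested was 0.01 with quantile normalization and -0.15 with median scaling. Of those 8537 genes, 4355 and 3005 lay above 0, so the list stood above all genes under both scalings. Without wild type 1 the medians of the list were 0.13 and -0.003, with 53 and 33 above 0. The medians of all genes were then 0.01 and -0.12. The lower gene was Mrps27 (adjusted p = 0.00725), which no knockout array and 3 wild-type arrays detected. Mrps27 thus passed the detection filter through the wild type alone. Its knockout level is not well above background, and no bound on its fold above 1 could be given.

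Of 38 tested initiation factor genes, 0 were higher and 1 was lower, with a median change of 0.01. It was Eif4b, a helper of the helicase that unwinds messenger RNA (limma adjusted p = 0.0134 for the change without a bound). Its probe was detected on 3 wild-type arrays and no knockout array, so it passed the detection filter through the wild type alone. With its knockout values bounded, Eif4b was at least 1.29-fold lower, and the bound was not tested. For this bound a knockout value could not fall below its array's dimmest detected probe. Of 9 genes with an Eef symbol, 0 were higher and 1 was lower, with a median of -0.13. It was Eef2k, the kinase that inhibits elongation factor Eef2 (adjusted p = 0.0386, again for the change without a bound). Its probe too was detected on 3 wild-type arrays alone, and with the bound Eef2k was at least 1.05-fold lower. Without wild type 1, 0 of the 9 Eef genes passed with quantile normalization, while 1 of the 38 initiation factor genes was still lower. Of 21 ribosome biogenesis genes, such as those for nucleolar proteins, 0 passed, with a median of 0.07 and 12 above 0. With median scaling the medians were -0.06, -0.10 and -0.09 for these 3 lists, where the median of all genes was -0.15. Of 7 tested reference genes 0 passed, with a median of 0.02 with quantile normalization and 0.06 with median scaling.

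Markers of several cell types of the lung and blood moved between the genotypes, and their part in the values above was not tested. Of 5 tested B cell markers, 2 were lower, Cd79a (-1.60, adjusted p = 0.00168) and Pou2af1 (-1.15, adjusted p = 0.00964), and 0 were higher. Cd22 alone of the 5 lay above 0, at 0.51 (adjusted p = 0.0734). The summed log2 level of the list ran from 10.09 to 10.45 in the knockout and from 10.79 to 11.27 in the wild type. Of 5 T cell markers 0 passed, with summed levels of 11.35 to 11.57 against 11.29 to 11.67. Of 8 listed genes of proliferating cells 4 were tested, and 2 were higher, Cdk1 (1.46, adjusted p = 0.00723) and Tyms (1.27, adjusted p = 0.0108). Their list had summed levels of 12.01 to 12.20 against 10.97 to 11.44. The Cdk1 probe was dim, at 650, 474 and 498 in the knockout and 490, 470, 477 and 515 in the wild type. These signals overlapped and lay not far above the arrays' medians of 259 to 468, so the size of the Cdk1 change is uncertain. Of 4 red cell genes 1 was lower, Slc4a1 (-2.64, adjusted p = 0.0116), with summed levels of 16.13 to 16.24 against 16.08 to 16.52. Among these 4 genes Alas2 also lay below 0 without passing, at -1.37 (adjusted p = 0.130), and 2 lay above 0 without passing, Hba-a1 (0.08) and Epor (0.11). Hba-a1 read from 67969 to 71333, near the top of the scale, and dominated the summed levels, which therefore say little about the other genes. Of the 8 epithelial markers 1 was higher, Sftpa1 (0.76, adjusted p = 0.0246), with summed levels of 18.28 to 18.35 against 18.06 to 18.15.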

How the data were processed

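The deposited table holds, per the file headers, for every array the mean bead signal of each probe, a linear intensity, with its detection p-value. It is not normalized, and the lowest deposited intensity was 114. A table of the authors' log2-like values was deposited as well, made with lumi 1.14.0 and R 2.11.1 per the submitters' processing notes; it had 1 median in all 7 arrays, its exact transformation is unknown, and it served as an alternative. Symbols came from the platform annotation.

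In R 4.3.3, limma 3.58.1 took the signals through the steps of neqc: background from detection p-values, an offset of 16, quantile normalization and log2. Median scaling replaced the quantile step with 1 shift per array. The filter required a detection p under 0.01 on 3 or more arrays and left 11902 probes of 8537 genes. Genotypes were compared with lmFit and eBayes over all kept probes, Benjamini-Hochberg adjusted, at 0.05. A gene is shown by its brightest kept probe. The code was tested on simulated data. Alternatives were other scalings, backgrounds, filters, probe rules and variance models, the authors' values, a replicate block and each array left out. Figures were drawn with Python 3.11.15.

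The members and lists were chosen with earlier results of these data known. Named by rule were the 8 largest and 8 smallest changes, members past the threshold under either scaling, members whose probes disagreed, and 12 preset genes.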

Additional observations from a re-analysis of the deposited data

Results flagged for a closer look

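Among the wild-type arrays, wild type 1 lay far below the other 3 for Rpl12, at a log2 level of 14.59 with quantile normalization against 15.15 to 15.27. It did so for Rpl4 too, at 11.07 against 11.47 to 11.53. Dixon's test was run on the 4 wild-type levels of 22 genes and on the genes' median, 23 groups in all, and chance marks about 1 group in 20.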

How the results depend on the processing

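Over the settings tried, 0 ribosomal protein genes were higher, with any scaling, background, filter, table, probe rule or variance model tried, or without any array. The 1 lower gene became 0 with median scaling, 75th percentile scaling, no filter and the replicate block, and 5 with no scaling between arrays. Without each array in turn the count of lower genes ran from 0 to 2. The median change of 0.01 became 0.41 with 75th percentile scaling and -0.30 with no scaling between arrays, where the median of all genes was 0.07 and -0.64. The distance from all genes was 0.34 under both, as under median scaling. With quantile normalization the median change itself ran from -0.031 to 0.043 without each array in turn. Under median scaling, a combination chosen after seeing the data, the median change ran from 0.067 to 0.28, with 0.26 without wild type 3. Leaving out the 14 genes near the brightest signal, also chosen after seeing the data, gave a median change of 0.03 with quantile normalization and 0.12 with median scaling. Over all 11902 probes, 1056 passed in the fit reported, against 2461 with no scaling, 401 with the replicate block and 333 to 999 without each array in turn. Rpl22 gave -0.51 (limma adjusted p = 0.178) with the replicate block. Same-numbered arrays of the 2 groups deviated together with correlations of -0.022, -0.0044 and -0.14. Between arrays with different numbers the correlations ran from -0.11 to 0.12. Such small values cannot tell whether the replicate numbers pair the samples. The cause of the differences between settings was not tested.

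Signs turned for these genes. With median scaling Rpl13a gave -0.046, Rpl3 0.031, Rps6 0.11 and Rpl38 0.42, and with 75th percentile scaling Rpl3 gave 0.24, Rpl5 0.16, Rps6 0.32 and Rpl38 0.63. With no scaling between arrays, which put all 51 genes below 0 and so fixed these signs, Rpl12 gave -0.24, Rpl13a -0.54, Rpl19 -0.38, Rpl29 -0.30, Rpl31 -0.27, Rpl37a -0.15, Rplp1 -0.024, Rps13 -0.25, Rps19 -0.12, Rps4x -0.25 and Rps9 -0.28. With the mean over a gene's probes Rpl31 gave -0.23 and Rpl38 0.18, and with the replicate block Rpl30 gave 0.034 and Rps6 0.00085. Without each array in turn Rpl12 ran from -0.017 to 0.21, Rpl19 from -0.044 to 0.20, Rpl30 from -0.38 to 0.037, Rpl31 from -0.0096 to 0.12, Rplp0 from -0.18 to 0.042, Rplp1 from -0.018 to 0.055, Rps4x from -0.014 to 0.028 and Rps6 from -0.070 to 0.056. None of these values passed.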
